A study of Rattus norvegicus with 6 samples.

Results

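The insulin-like growth factor (IGF) family was followed through 10 genes in cultured neonatal rat ovaries. These were the ligand genes Igf1 and Igf2, the receptor genes Igf1r and Igf2r, and the genes of the binding proteins Igfbp2, Igfbp3, Igfbp4, Igfbp5, Igfbp6 and Igfbp7. The members were all probe sets whose only gene symbol in the array annotation was 1 of these names, which gave 23 of the 31042 probe sets that were not array controls. The 10 genes stand among 14217 with a probe set of their own. RNA came from ovaries of 4-day-old female Sprague-Dawley rats, cultured whole on floating filters for 48 h. One group received 50 ng/ml of recombinant human NT3 (neurotrophin-3) and the control group no factor. Each group had 3 arrays, and each array held RNA pooled from 2 to 3 ovaries. The culture medium shared by both groups contained albumin, Albumax, ascorbic acid, transferrin and antibiotics, and the labels list no serum and no insulin or IGF in it. The title of the series concerns the passage of primordial follicles, in which an arrested oocyte lies within flattened granulosa cells, to the primary stage.

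IGF-I and IGF-II are small secreted proteins related to insulin. Both signal through the tyrosine kinase encoded by Igf1r, while the product of Igf2r takes IGF-II into the cell for breakdown and does not signal as a kinase. In tissue most IGF is held by binding proteins, which limit its access to the receptor until a protease cuts them or the matrix releases them. In the rodent ovary Igf1 is known as a product of granulosa cells of growing follicles, and IGF-I as a partner of follicle-stimulating hormone.

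The signal of all 10 genes was readily measured, and none of them passed the test between NT3-treated and control ovaries. Signals are intensities of the MAS5 algorithm on a linear scale, scaled alike on every array, and give no absolute transcript number. The chosen probe set of a gene, the one with the highest mean, lay between the 75.7th percentile of all probe sets for Igfbp4 and the 99.5th for Igfbp5. By limma, with Benjamini-Hochberg adjustment over 18625 tested probe sets, 0 of the 10 genes had an adjusted p under 0.05, beside 0% of 10600 tested genes. The lowest adjusted p of a member was 1.00. In 1 of the 10 genes, Igfbp7, the unadjusted limma p was under 0.05, against 1.17% of the tested genes, of which 0.472% were higher in NT3. Counted over probe sets this was 1 of 20 tested, against 1.29% of all probe sets tested. The labels call the replicates biological without naming their animals or litters. The spread behind each p-value is that of these 6 samples and may be partly technical. In bulk RNA, fewer cells of a type and less RNA per cell cannot be told apart.

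Median signals per array were 69.0 to 74.4 in NT3 and 71.1 to 75.0 in control. Oocyte and granulosa markers were present. Gdf9 had a mean of 1368 in NT3 and 1531 in control, and Foxl2 597.5 and 527.4, while the hepatocyte marker Alb had 17.2 and 18.1. Foxl2 was among the 2 of 7 tested granulosa markers that were higher in NT3, and of 6 tested oocyte markers 2 were. Control replicate 2 stood apart, with a ratio of 3′ to 5′ signal of beta-actin of 6.83 against 2.42 to 2.91 on the other 5 arrays. It was the highest or the lowest of the 6 arrays in 58.3% of the tested genes and in 9 of the 10 members. The other arrays were so in 24.5% to 30.6% of the genes. The log2 fold changes without it are therefore given beside those over all arrays for every tested member and every tested pathway gene named below.

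The sequences around the RefSeq starts of 3 of these genes are shown because the ligands define the family and Igfbp7 was the 1 member whose groups did not overlap. Each line gives 250 bases before to 50 bases after a start in the GRCr8 assembly, 5′ to 3′ on the strand of the gene. Capitals mark a TATAAA box, a CCAAT box or a GGGCGG box on either strand, and no matches overlap each other here. The Igf1 window is chr7:24172282-24172581 on the plus strand, and that of Igfbp7 is chr14:31091486-31091785 on the plus strand. Igf2 has 2 windows on the minus strand, start A at chr1:207253931-207254230 and start B at chr1:207250426-207250725.
Igf1: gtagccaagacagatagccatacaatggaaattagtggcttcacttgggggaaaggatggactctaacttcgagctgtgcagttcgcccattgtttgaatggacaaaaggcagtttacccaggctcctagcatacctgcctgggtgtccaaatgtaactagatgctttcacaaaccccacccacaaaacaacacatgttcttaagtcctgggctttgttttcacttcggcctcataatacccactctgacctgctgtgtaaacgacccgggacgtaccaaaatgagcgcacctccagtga
Igf2 start A: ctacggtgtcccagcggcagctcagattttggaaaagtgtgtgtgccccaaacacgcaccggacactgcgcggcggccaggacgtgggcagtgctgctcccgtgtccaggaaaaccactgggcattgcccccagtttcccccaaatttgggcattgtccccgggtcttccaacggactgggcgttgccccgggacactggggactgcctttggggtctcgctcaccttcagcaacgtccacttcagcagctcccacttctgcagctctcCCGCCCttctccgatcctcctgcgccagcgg
Igf2 start B: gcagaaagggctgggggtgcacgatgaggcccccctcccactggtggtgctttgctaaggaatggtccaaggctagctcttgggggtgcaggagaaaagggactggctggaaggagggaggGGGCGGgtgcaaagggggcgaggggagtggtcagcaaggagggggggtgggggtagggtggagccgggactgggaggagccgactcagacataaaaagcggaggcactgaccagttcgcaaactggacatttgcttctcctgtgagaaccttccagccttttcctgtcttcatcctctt
Igfbp7: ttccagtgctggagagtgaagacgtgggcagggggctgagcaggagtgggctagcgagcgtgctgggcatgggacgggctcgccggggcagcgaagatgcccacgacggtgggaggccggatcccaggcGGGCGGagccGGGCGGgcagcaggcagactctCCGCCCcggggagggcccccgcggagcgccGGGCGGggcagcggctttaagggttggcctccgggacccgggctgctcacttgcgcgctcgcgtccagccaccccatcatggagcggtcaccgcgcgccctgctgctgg
The Igfbp7 window held 4 copies of GGGCGG, each Igf2 window held 1, and the Igf1 window held none of the 3 motifs. GGGCGG occurred in 33.1% of 33469 RefSeq windows of this length, TATAAA in 14.2% and CCAAT in 37.5%. Of the 11 windows of the 10 members, 6 held GGGCGG, 1 held TATAAA, that of Igfbp4, and 0 held CCAAT. The G and C content was 48.3% for Igf1 and 74.3% for Igfbp7, against a median of 51.7% over all windows. A match of letters is a description and does not show that a factor binds there.

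**Figure D1:**
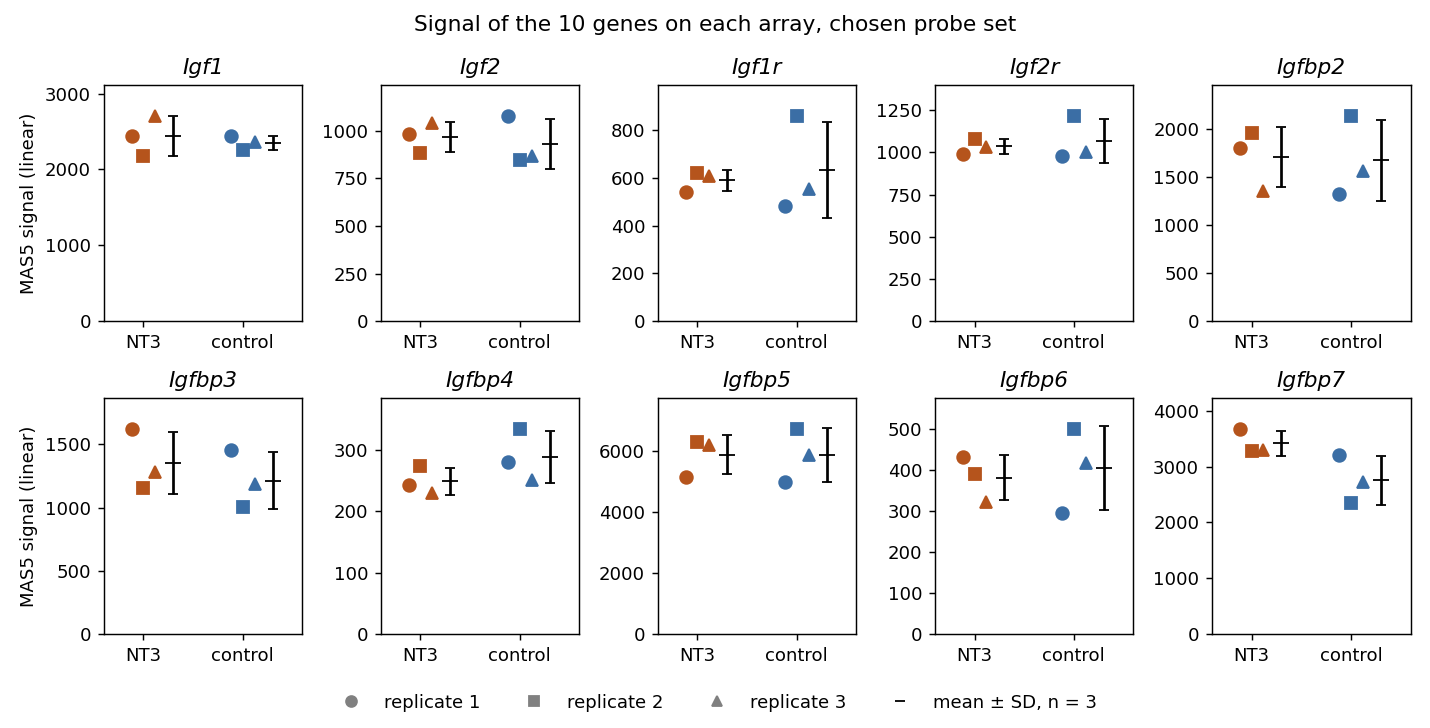
Signal (linear MAS5 intensity, y axis) of the chosen probe set of each gene on the 3 NT3 arrays (left, brown) and the 3 control arrays (right, blue), with symbols for the replicate number and the mean ± SD (n = 3) beside them. The groups overlap in 9 genes, and in Igfbp7 the NT3 arrays, at 3287 to 3680, lie above the control arrays, at 2341 to 3216.

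Igf1, the gene of the granulosa growth factor IGF-I, differed little between the groups. Its chosen probe set had signals of 2438.7, 2176.2 and 2706.9 in NT3 replicates 1 to 3, and 2439.1, 2250.8 and 2362.5 in control replicates 1 to 3. NT3 replicate 3 was the highest array and NT3 replicate 2 the lowest, so that the control values lay inside the range of the NT3 values. The mean was 2441 ± 265 in NT3 and 2351 ± 94.7 in control (SD, n = 3). The fold change was 1.03, with a 95% interval of 0.877 to 1.22 and an unadjusted limma p of 0.652, and its log2 fold change was 0.049 over all arrays and 0.018 without control replicate 2. Igf1 had 2 further probe sets, both also higher on average in NT3. The first had means of 1320 ± 126 in NT3 and 1218 ± 260 in control, and the second 573.0 ± 39.7 and 491.4 ± 109. In both, control replicate 2 was the lowest array, at 921.4 and 375.3. Their log2 fold changes were 0.13 ± 0.16 and 0.24 ± 0.17 (SE) over all arrays, and -0.055 and 0.063 without control replicate 2.

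Igf2, the gene of the fetal growth factor IGF-II, was measured by 1 of its 4 probe sets. Signals were 981.0, 881.2 and 1040.1 in NT3 and 1079.2, 846.0 and 866.6 in control. Control replicate 1 was the highest array, and the NT3 values all lay within the control range. The mean was 967.4 ± 80.3 in NT3 and 930.6 ± 129 in control (SD, n = 3), a fold change of 1.04 with a 95% interval of 0.857 to 1.27. Without control replicate 2 the log2 fold change was -0.0028 in place of 0.061. The other 3 Igf2 probe sets had signals of 1.1 to 11.9 in NT3 and 2.0 to 6.1 in control and fell below the limit of 41.3 set for testing. They are the only 3 of the 23 probe sets that did, and the annotation gives all 3 the same source sequence. One of them read 11.1, 11.9 and 2.0 in NT3 against 2.1, 2.2 and 2.0 in control, at levels near the bottom of the scale where no fold change was taken.

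The receptor genes did not differ between the groups beyond the spread of the replicates. The chosen probe set of Igf1r, the gene of the signalling receptor, had signals of 538.4, 621.4 and 608.5 in NT3 and 482.1, 859.7 and 551.8 in control. Control replicate 2 was the highest of the 6 arrays and widened the control SD to 201, against 44.7 in NT3. The log2 fold change was -0.056 ± 0.20 (SE) over all arrays and 0.19 without that array, where the NT3 values overlapped those of control replicates 1 and 3. The other Igf1r probe set averaged 314.9 ± 53.2 in NT3 and 324.8 ± 21.7 in control (SD, n = 3), with -0.056 over all arrays and -0.012 without control replicate 2 on the log2 scale. Igf2r, the gene of the clearance receptor, had 991.5, 1080.1 and 1034.6 in NT3 and 980.5, 1217.7 and 1003.2 in control. Here too control replicate 2 was the highest array and the NT3 values lay within the control range. The fold change of Igf2r was 0.974 with a 95% interval of 0.816 to 1.16, and its log2 fold change was -0.037 over all arrays and 0.061 without control replicate 2. Its other probe set had a log2 fold change of -0.076 ± 0.18 over all arrays, and 0.078 without control replicate 2.

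Igfbp7 encodes a secreted relative of the binding proteins that binds IGF weakly and is known from vessel walls. Its signals were 3680.2, 3286.9 and 3293.9 in NT3 and 3215.8, 2341.1 and 2720.2 in control. All 3 NT3 arrays were above all 3 controls, which was so of 1 of the 10 members and of 2.41% of the tested genes in this direction. In either direction the groups did not overlap in 5.74% of the tested genes and 5.83% of the tested probe sets. The mean was 3420 ± 225 in NT3 and 2759 ± 439 in control (SD, n = 3). The fold change was 1.25, with a 95% interval of 1.02 to 1.52 that is not adjusted for the number of genes. The unadjusted limma p was 0.0320 and the adjusted p 1.00, so Igfbp7 did not pass the test. Pairs of equal replicate number differed by 0.19, 0.49 and 0.28 on the log2 scale. Blocking on the replicate number gave an unadjusted limma p of 0.00742, and the adjusted p still did not pass. With single arrays left out the unadjusted limma p, without a block, was under 0.05 in 1 of 6 fits, that without control replicate 1, and 0.0526 to 0.117 in the other 5.

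Control replicate 2 had the lowest Igfbp7 signal. Without it the log2 fold change was 0.21 in place of 0.32, with an unadjusted limma p of 0.0714. Leaving out an array cannot make separate groups overlap, so the lack of overlap without it adds nothing. NT3 replicate 2 and control replicate 1 were close at 3286.9 and 3215.8. The share of all tested genes without overlap on the remaining arrays was not counted. The beta-actin ratio of 3′ to 5′ signal was 2.78 to 2.91 in NT3 and 2.42 and 2.60 in control replicates 1 and 3, so that this measure of RNA quality also moved with the groups. The summed signal of 9 marker genes of theca and stroma was 16212 to 17150 in NT3 and 14060 to 15559 in control. For 6 macrophage and leukocyte markers it was 1170 to 1305 in NT3 and 1025 to 1159 in control. Of the theca and stroma markers 6 of 8 tested genes were higher in NT3, of the leukocyte markers 5 of 6, and none of either list had an unadjusted limma p under 0.05. These counts were 4 of 8 and 5 of 6 without control replicate 2. Most of the theca and stroma sum came from Dcn, Col1a1 and Lum, with means of 6433, 4392 and 2983 in NT3. Their log2 fold changes were 0.17, 0.14 and 0.32 over all arrays, and -0.0042, 0.34 and 0.11 without control replicate 2. Lhcgr, Hsd3b1 and Star of the same list had -0.46, -0.067 and 0.019, and -0.47, -0.22 and -0.056 without that array. These 6 genes are named after their values were seen. Of 7 tested markers of surface and oviduct epithelium 4 were higher in NT3, or 7 without control replicate 2, while their summed signals overlapped at 6908 to 10382 in NT3 and 6477 to 10499 in control. Cldn3, a tight junction gene of that list named after its values were seen, was the 1 marker with an unadjusted limma p under 0.05. Its signals were 148.2, 142.6 and 86.2 in NT3 and 64.6, 67.9 and 61.7 in control, which put its log2 fold change at 0.92 (limma, unadjusted p = 0.00372, adjusted p = 1.00). The 5 endothelial markers overlapped between the groups, with sums of 1413 to 1772 in NT3 and 1526 to 1808 in control. Of the 4 tested endothelial markers 0 were higher in NT3, with or without control replicate 2. Of 4 tested smooth muscle markers 2 were higher in NT3, or 3 without that array. The smooth muscle sums overlapped at 510 to 825 in NT3 and 542 to 894 in control. The part of these markers and of RNA quality in the Igfbp7 values was not tested.

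Igfbp3 and Igfbp4 were the other members whose difference had 1 sign in all 3 pairs of equal replicate number. Together with Igfbp7 that made 3 of the 10 members, against 21.2% of the tested genes. Igfbp3, the gene of the main carrier of IGF in blood, had 1623.9, 1151.8 and 1283.4 in NT3 and 1451.3, 1003.5 and 1184.9 in control. The groups overlapped widely, and replicate 1 was highest and replicate 2 lowest in each. The pair differences were 0.16, 0.20 and 0.12 on the log2 scale, with an unadjusted limma p of 0.365 without a block and 0.100 with it. The log2 fold change of this probe set was 0.16 over all arrays, 0.030 without control replicate 2 and 0.020 without NT3 replicate 1. The second Igfbp3 probe set did not share this, with pair differences of 0.0033, 0.23 and -0.0022, and its log2 fold change was 0.077 over all arrays and -0.16 without control replicate 2.

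Igfbp4 encodes a binding protein that restrains IGF action and is cut by the protease of the Pappa gene. Its signals were 242.8, 273.5 and 230.1 in NT3 and 280.8, 334.9 and 251.6 in control. NT3 replicates 1 and 3 were below every control, and control replicate 2 was the highest array. The mean was 248.8 ± 22.3 in NT3 and 289.1 ± 42.3 in control (SD, n = 3). The fold change was 0.864 with a 95% interval of 0.685 to 1.09 and an unadjusted limma p of 0.189, and the log2 fold change was -0.21 over all arrays and -0.099 without control replicate 2.

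Igfbp2 and Igfbp6 varied more between replicates than between groups. Igfbp2, whose product also binds integrins, had 1806.9, 1961.8 and 1356.0 in NT3 and 1322.6, 2138.8 and 1561.5 in control. The NT3 values lay inside the control range, and the fold change was 1.03 with a 95% interval of 0.760 to 1.39. The log2 fold change of Igfbp2 was 0.23 without control replicate 2, its highest array, in place of 0.041. Igfbp6, whose product prefers IGF-II, had 431.9, 389.6 and 323.1 in NT3 and 296.2, 501.4 and 416.5 in control, again with the NT3 values inside the control range. Its chosen probe set, of a kind named as matching several transcripts, gave -0.062 ± 0.20 (SE) as its log2 fold change, against 0.066 ± 0.21 for the other one. Without control replicate 2 these were 0.11 and 0.19. Both Igfbp6 probe sets were higher in NT3 in the pair numbered 1, by 0.54 each, and lower in the pair numbered 3, by differences of -0.37 and -0.41.

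**Figure D2:**
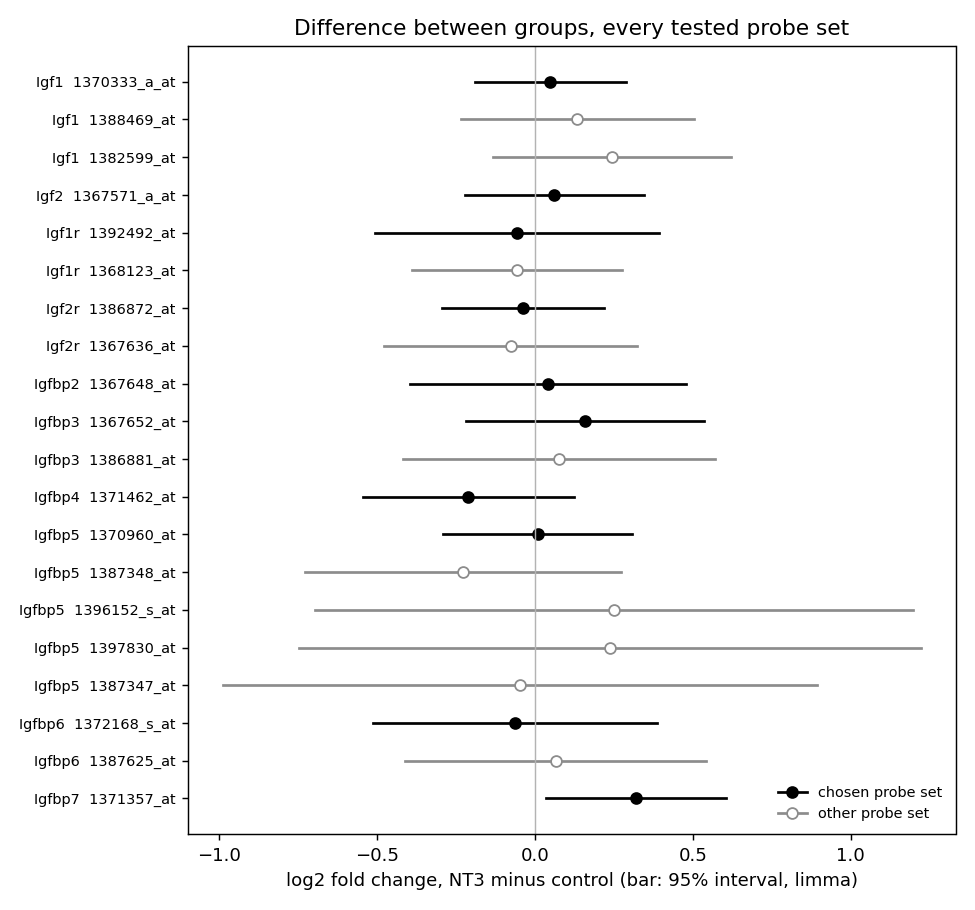
Log2 fold change of NT3 over control (x axis, points) with its 95% interval from limma (bars) for the 20 tested probe sets, the chosen one of each gene in black and the others in grey. The interval leaves out 0 for Igfbp7, at 0.034 to 0.61, before adjustment, and the widest intervals belong to 3 probe sets of Igfbp5.

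Igfbp5, whose product binds the extracellular matrix, gave readings that differed between its probe sets. Its chosen probe set had 5170.0, 6316.0 and 6196.8 in NT3 and 4998.2, 6747.2 and 5891.4 in control. The NT3 values lay within the control range, with means of 5894 ± 630 in NT3 and 5879 ± 875 in control (SD, n = 3) and a fold change of 1.01 with a 95% interval of 0.817 to 1.24. The gene had 5 probe sets, and they split into a pair and a trio on control replicate 2. The chosen probe set and 1387348_at were highest on that array, by 0.25 and 0.70 on the log2 scale above the mean of the other 5 arrays. The trio, 1396152_s_at, 1397830_at and 1387347_at, was lowest there, by differences of -1.54, -1.60 and -1.18. Deviations at least as large as these 3 occurred in 1.32%, 1.18% and 2.88% of the tested probe sets.

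The first of the trio, 1396152_s_at, had signals of 652.6, 854.8 and 1021.7 in NT3 and 1036.9, 311.8 and 1048.5 in control. With control replicate 2 the groups overlapped, and without it every NT3 value was below both controls. The share of all tested probe sets without overlap on the remaining arrays was not counted. The probe set 1397830_at, which the annotation ties to the same source sequence and which is therefore no separate reading, had 408.3, 567.7 and 602.1 in NT3 and 636.5, 189.6 and 705.5 in control. It showed the same order, with NT3 below both remaining controls. The third, 1387347_at, had low signals of 69.1, 67.5 and 112.8 in NT3 and 102.3, 41.6 and 136.0 in control. Its NT3 values overlapped the controls in either case. Over all arrays the log2 fold changes of the trio were 0.25, 0.24 and -0.046, and without control replicate 2 they were -0.33, -0.37 and -0.55. The unadjusted limma p-values without that array were 0.0731, 0.0477 and 0.0628. In that fit 656 of the 18625 tested probe sets had such a p under 0.05, against 240 over all arrays. In the pair of probe sets the log2 fold changes without it were 0.11 for the chosen one and 0.0079 for 1387348_at. Over all arrays 1387348_at had -0.23, at an unadjusted limma p of 0.330, or 0.0342 when pairs of equal number were blocked. With that block 401 of the tested probe sets had such a p under 0.05.

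**Figure D3:**
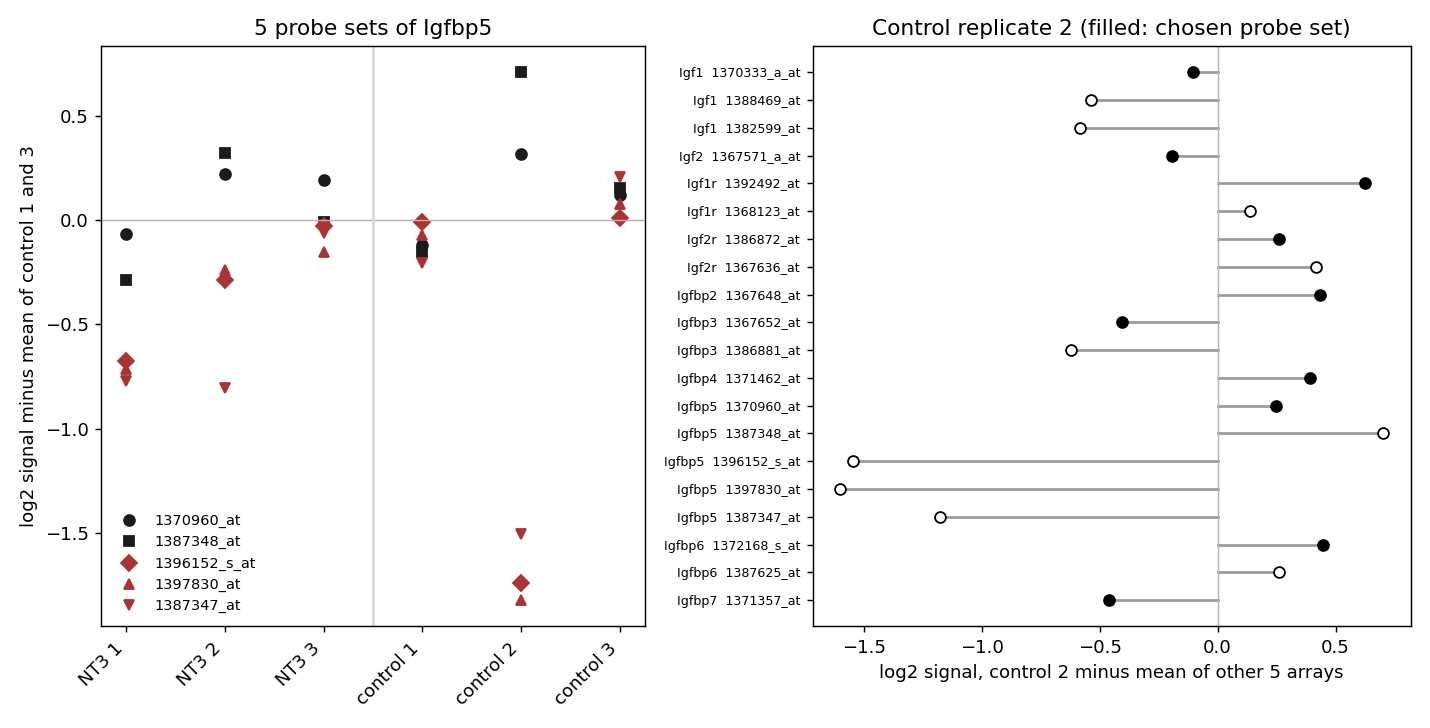
Left, log2 signal of the 5 Igfbp5 probe sets on each array relative to the mean of control replicates 1 and 3, the pair in black and the trio in red. Right, log2 signal of control replicate 2 minus the mean of the other 5 arrays for the 20 tested probe sets, from -1.60 to 0.70, with the trio of Igfbp5 farthest from 0.

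Probe sets of the other genes with more than 1 reading stood on the same side in control replicate 2. Of the 20 tested probe sets, 8 were highest and 9 were lowest on that array. Both Igf1r and both Igf2r probe sets were above the mean of the other arrays, as were both of Igfbp6, and all 3 of Igf1 and both of Igfbp3 were below it. Across the 6 arrays the Pearson correlation between 2 probe sets of a gene was 0.90 for Igfbp3, 0.83 for Igfbp6, 0.80 for Igf2r, 0.63 to 0.95 for Igf1 and 0.43 for Igf1r. Within Igfbp5 it was 0.88 in the pair, 0.90 to 0.99 in the trio and -0.65 to -0.41 between them. Without control replicate 2 the values between the pair and the trio were 0.083 to 0.55. These correlations describe 6 arrays that share their scaling, and 5 without control replicate 2.

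Likeness to other genes was taken from the chosen probe sets of Igf1 and Igfbp5. The Igfbp5 trio itself correlated with the chosen Igfbp5 probe set at -0.46 to -0.41. Among 10538 compared genes, those whose log2 signal followed Igf1 most closely over the 6 arrays were Ddb2, Pdk3 and Kdm7a, at Pearson correlations of 0.997, 0.986 and 0.982. For Igfbp5 they were Mylk3, Cenpp and Dtna, at 0.996, 0.993 and 0.992. With 6 arrays and this many genes, values of this size describe the arrays and carry no test. Ddb2 averaged 357.5 in NT3 and 330.4 in control, and Mylk3 172.5 and 179.2. The members Igfbp2 and Igfbp5 are next to each other on chromosome 9 in the RefSeq annotation, and Igfbp3 lies next to Igfbp1 on chromosome 14. Igfbp2 and the chosen probe set of Igfbp5 were both highest in control replicate 2. On NT3 replicate 3 they differed, with Igfbp2 the second lowest of its 6 arrays, at 1356.0, and Igfbp5 the third highest, at 6196.8.

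Of 58 other genes of the insulin and IGF pathway, 51 were in the annotation and 37 were tested. In NT3, 17 were higher and 20 lower. Their median log2 fold change was -0.014, against -0.0075 over all tested genes. Without control replicate 2 the counts were 22 higher and 15 lower, with a median of 0.042, against 0.0085 over all tested genes. None of the 37 passed limma, with 0 adjusted p-values under 0.05, and 1 had an unadjusted p under 0.05, in the lower direction, where 0.698% of the tested genes did. That gene was Ptpn1, which encodes a phosphatase that removes phosphate from the insulin receptor. Its mean was 80.9 ± 11.2 in NT3 and 110.4 ± 6.64 in control (SD, n = 3), and the groups did not overlap, with 93.7, 73.3 and 75.6 in NT3 and 104.5, 117.6 and 109.2 in control. The log2 fold change was -0.46 ± 0.18 (SE) with an unadjusted limma p of 0.0315, and -0.41 without control replicate 2. The other Ptpn1 probe set had -0.092, and 0.020 without that array. The chosen one, 1397916_s_at, is of the kind named as matching several transcripts. Over the 59 tested probe sets of these 37 genes, 2 had an unadjusted p under 0.05, against 1.29% of all tested probe sets, and 0 an adjusted one. The second was 1375360_at of Rheb, which encodes a GTPase that activates mTOR, named here after its values were seen. It read 82.0, 92.8 and 64.7 in NT3 and 47.6, 35.4 and 63.3 in control, which did not overlap. Its log2 difference was 0.74 (limma, unadjusted p = 0.0225), and 0.52 without control replicate 2. The chosen Rheb probe set, with signals of 2732 to 2925 in NT3 and 2389 to 2842 in control, had 0.11, and 0.050 without that array.

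Outside the cell, no reading of IGF availability changed by the test. Of its 6 tested genes 4 were higher and 2 lower, over all arrays as well as without control replicate 2. Fn1, the fibronectin gene, averaged 940.4 ± 132 in NT3 and 799.9 ± 160 in control, and Mmp2, which encodes a matrix protease able to cut binding proteins, 1298 ± 252 and 1163 ± 105. Their log2 fold changes were 0.24 and 0.14 over all arrays, and 0.12 and 0.078 without control replicate 2. Stc1, the gene of stanniocalcin 1, which blocks the protease of Pappa, averaged 335.7 ± 39.5 in NT3 and 350.7 ± 107 in control. The log2 fold change of Stc1 was -0.029 over all arrays and 0.21 without control replicate 2, whereas its other probe set had 0.13 and -0.035. Stc2 lay below the limit for testing at 15.3 in NT3 and 17.9 in control. Pappa itself was not named by any probe set in the annotation. Igfbp1, the member of the binding protein family most known from liver and named here after its values were seen, was also below the limit, at 37.2 ± 21.9 in NT3 and 18.3 ± 8.93 in control (SD, n = 3). Insr, the insulin receptor gene, had low signals of 78.4, 51.0 and 52.6 in NT3 and 55.0, 62.0 and 56.1 in control, and log2 fold changes of 0.046 over all arrays and 0.098 without control replicate 2. Ghr, the growth hormone receptor gene, averaged 146.4 ± 13.3 in NT3 and 131.2 ± 20.2 in control. Its log2 fold change was 0.16 over all arrays and 0.10 without control replicate 2, against 0.26 and -0.32 for its other probe set. The genes Igf2bp2 and Igf2bp3, whose products bind the Igf2 mRNA, averaged 1344 ± 74.9 and 299.8 ± 18.7 in NT3, against 1480 ± 310 and 318.5 ± 35.8 in control. Over all arrays their log2 fold changes were -0.12 and -0.083, and without control replicate 2, the highest array of both, they were 0.042 and 0.0076. The other probe set of Igf2bp2 had -0.50 over all arrays, at an unadjusted limma p of 0.0626, and -0.29 without that array. The other one of Igf2bp3 had 0.25, opposite in sign to the chosen one, and 0.18.

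Inside the cell, 2 of 10 tested receptor adaptor genes were higher and 8 lower in NT3, and 9 of 17 genes from PI3K to AKT and mTOR were higher and 8 lower. The adaptors were 5 higher and 5 lower without control replicate 2, and the genes from PI3K to mTOR again 9 and 8. The adaptor list had a median log2 fold change of -0.086, which was -0.024 without that array. Grb10, which encodes an inhibitory adaptor of the insulin and IGF receptors, averaged 548.5 ± 15.9 in NT3 and 457.9 ± 70.0 in control (SD, n = 3). Its arrays read 560.2, 554.9 and 530.4 in NT3 and 484.2, 378.6 and 511.0 in control, which did not overlap, with a log2 fold change of 0.27 ± 0.13 and an unadjusted limma p of 0.0727. Without control replicate 2 it was 0.14. The other Grb10 probe set had 0.12, and -0.063 without that array. Akt2, a kinase gene downstream of the receptors, averaged 312.3 ± 8.72 in NT3 and 370.0 ± 31.1 in control, with a log2 fold change of -0.24 and an unadjusted limma p of 0.0714, and -0.18 without control replicate 2. Its arrays read 321.4, 304.0 and 311.6 in NT3 and 337.7, 399.7 and 372.5 in control, which did not overlap either. Its 2 other probe sets had -0.0073 and 0.21 over all arrays, and -0.15 and -0.22 without that array. Rptor, a subunit gene of the mTOR complex, averaged 120.6 ± 17.2 in NT3 and 143.2 ± 16.01 in control, with -0.25 over all arrays and -0.18 without control replicate 2 on the log2 scale. Of the docking proteins of the receptor, Irs2 averaged 135.9 ± 22.8 in NT3 and 129.9 ± 13.3 in control, with 0.057 over all arrays and 0.14 without control replicate 2 on the log2 scale. Irs1 was below the limit at 20.4 in NT3 and 14.1 in control.

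Among the 37 tested pathway genes the groups did not overlap in 5, against 5.74% of the tested genes. Grb10 was higher in NT3, where 2.41% of the tested genes were, and 4 were lower, where 3.33% were. The 4 were Ptpn1, Akt2, Grb2 and Gab1, of which Grb2 and Gab1, genes of adaptors that link receptors to downstream signalling, are named after their values were seen. Grb2 had 569.0, 626.6 and 558.3 in NT3 and 661.6, 773.9 and 629.8 in control, with -0.23 over all arrays (limma, unadjusted p = 0.0788) and -0.14 without control replicate 2 on the log2 scale. The other Grb2 probe set, whose groups overlapped, had 0.084 over all arrays, opposite in sign to the chosen one, and -0.017 without that array. Gab1 had 571.8, 594.4 and 655.6 in NT3 and 669.0, 692.8 and 656.6 in control, with -0.15 (limma, unadjusted p = 0.180) and -0.13. The margin in Gab1 was narrow, between 655.6 in NT3 replicate 3 and 656.6 in control replicate 3, and none of the 5 genes passed adjustment.

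**Figure D4:**
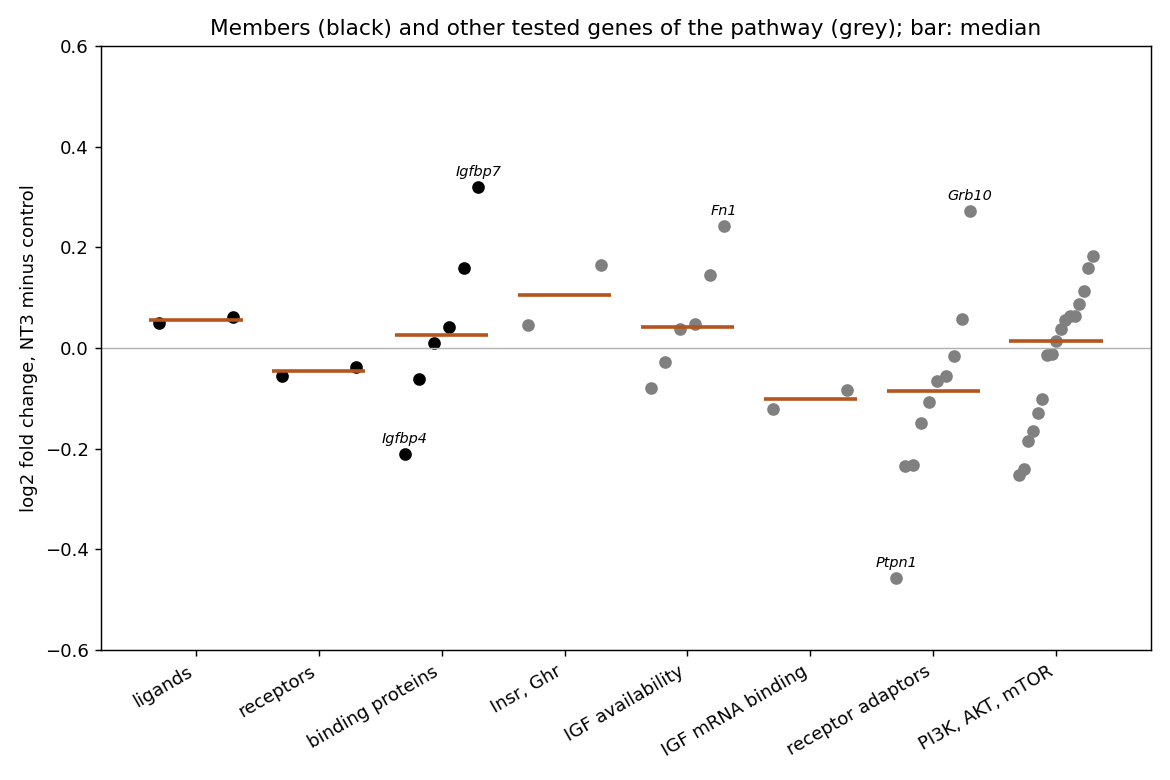
Log2 fold change of NT3 over control (y axis) for the 10 members (black) and 37 other tested pathway genes (grey), 1 point per gene for its chosen probe set, grouped by role (x axis), with the median of each group as a bar. Most points lie near 0, with Igfbp7 at 0.32 and Ptpn1 at -0.46 the farthest from it, and neither passed the test.

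Standard errors of the log2 fold change had a median of 0.14 for the chosen probe sets of the 10 members and 0.18 over all tested probe sets. The 95% intervals of the chosen probe sets together reached from 0.685-fold, for Igfbp4, to 1.52-fold, for Igfbp7. The median size of the log2 fold change, with its sign removed, was 0.059 in the members and 0.088 over all tested genes. The chosen probe sets of the members lay at or above the 75.7th percentile of signal, and the filter was at the 40th. Neither of these 2 comparisons of medians was matched for signal. Igfbp7, at 0.32, was exceeded in size by 5.63% of the tested genes.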

How the data were processed

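For each probe set and array the deposited value is a linear intensity, made with MAS5 per the submitters' processing notes (version not given in the sources used here). Its mean after trimming 2% at each end was 210.1 on all 6 arrays, so no further scaling was applied. The sample titles gave the groups and replicate numbers. The 57 control probe sets were left out, 0.1 was the floor, and log2 signals were compared by limma 3.58.1 in R 4.3.3 (lmFit, eBayes with an intensity trend, 2-sided, Benjamini-Hochberg). Probe sets below the 40th percentile of the mean log2 signal, a signal of 41.3, were not tested, which kept 18625. Detection calls were not used. Names came from the array annotation, where 20826 probe sets had 1 symbol, 436 several and 9780 none, and 20758 matched RefSeq's GRCr8 table by Entrez identifier. Promoter windows came from RefSeq (GRCr8).

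The 10 genes and all gene lists were chosen with earlier results of these data known. Every member was named. From each pathway list up to 2 genes with the lowest p were named, and Insr, Pappa, Stc1, Stc2, Irs1 and Irs2 in any case. The 3 genes most like Igf1 and Igfbp5 were named too, as were Gdf9, Foxl2 and Alb as markers, and further pathway and marker genes are marked in the text. Of the marker lists, oocyte markers had 2 of 6 tested genes higher in NT3, granulosa 2 of 7, smooth muscle 2 of 4, epithelium 4 of 7, endothelium 0 of 4, adipocyte 1 of 2 and liver 0 of 1. The oocyte count was 0 without control replicate 2, that of smooth muscle 3 and that of epithelium 7, and the other 4 were as before. Deviations from the group means correlated at 0.23, 0.25 and 0.22 between arrays of equal number and at -0.25 to 0.029 otherwise. The numbers were taken to pair the samples on this evidence, which the labels do not state. The main fit nevertheless had no block, so its p-values, standard errors, intervals and shares leave the pairing out. If the pairing holds, that fit counts differences shared by a pair as error. With the block, each member's unadjusted limma p was lower than in the main fit. The same p was below 0.05 for 401 probe sets with the block, against 240. The unblocked fit was also run on simulated data with independent errors. Those errors do not match these arrays, so no conclusion was drawn from that run. Alternatives were the block, quantile normalization, median centring, other filters, an offset of 16, no variance trend, the mean of a gene's probe sets and each array left out.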

Additional observations from a re-analysis of the deposited data

How the results depend on the processing

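None of the 10 members had an adjusted limma p under 0.05 under any of the 15 alternatives, and over all probe sets, counted under 14 of them, the count was 0 in 13. With the replicate number as a block and without control replicate 2, which rests on 2 pairs, 4 probe sets passed, 3 of them unnamed and 1 of Hnrnpa2b1, named here after its values were seen. The replicate block changed no member's call. Probe sets with an unadjusted p under 0.05 numbered 240, and 401 with the replicate block, 962 with the block without control replicate 2, 752 with no filter, 123 with a filter at the 60th percentile, 377 without a variance trend, and 176 to 656 with single arrays left out. Members with such a p in their chosen probe set numbered 1 (Igfbp7), and 0 with quantile normalization and 0 without a variance trend. With single arrays left out they numbered 0 to 1, 0 in 5 of these 6 fits. Of the Igfbp5 probe sets that were not chosen, 1387348_at had an unadjusted limma p of 0.0342 with the replicate block. Another, 1397830_at, had 0.0477 without control replicate 2. The log2 fold change of Igfbp7 ranged from 0.21 without control replicate 2 to 0.44, with an unadjusted p of 0.00514 to 0.117 over single arrays left out. Igfbp3 and Igfbp4 also kept their sign in all 15, over single arrays left out at 0.020 to 0.30 and -0.31 to -0.099, the lowest for Igfbp3 without NT3 replicate 1 and 0.030 without control replicate 2. The pathway median, -0.014, changed sign to 0.042 without control replicate 2 and to 0.023 with the block as well, and was -0.071 to 0.042 over single arrays left out, where the array medians of the list had an SD of 0.092 within groups. The cause of the following changes of sign was not tested. With the block and without control replicate 2, Igf1r had 0.15, Igf2r 0.030 and Igfbp6 0.089. With the mean of its probe sets Igfbp6 had 0.0022. Without control replicate 2, Igf2 had -0.0028, Igf1r 0.19, Igf2r 0.061 and Igfbp6 0.11. Igf1r and Igfbp2 had 0.0080 and -0.0086 without NT3 replicate 1, Igfbp2 and Igfbp5 -0.068 and -0.044 without NT3 replicate 2, and -0.11 and -0.10 without control replicate 1. Without NT3 replicate 3, Igf1 had -0.028, Igfbp5 -0.030 and Igfbp6 0.053. Over single arrays left out, Igf1 had -0.028 to 0.13, Igf2 -0.0028 to 0.17, Igf1r -0.23 to 0.19, Igf2r -0.095 to 0.061, Igfbp2 -0.11 to 0.23, Igfbp5 -0.10 to 0.11 and Igfbp6 -0.27 to 0.11.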
